A study of Mus musculus with 16 samples.

Results

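The miR-34 family in mouse myoblasts is described here through the 5 mature miRNAs miR-34a-5p, miR-34b-5p, miR-34b-3p, miR-34c-5p and miR-34c-3p, chosen by name among the 2274 miRNA names of 16 small RNA libraries. A name was matched after removal of the text in parentheses that marks mismatches, and every listed sequence under that name was counted. The cells were C2C12, an immortal line of mouse myoblasts that form multinucleated myotubes in low serum, and per the growth protocol they were negative for PAX7. Control cells carried a wild-type genotype. The triple-knockout cells (tKO) lacked the genes miR-1a-1, miR-1a-2 and miR-206. Both were sampled in growth medium with 20% serum (GM) and after 3 days in 2% horse serum (DM3). Each of the 4 groups held 4 libraries, from lines 1 and 2 with replicates 1 and 2 each. The control lines were populations and the tKO lines were single clones, so 4 libraries of a group were not 4 independent lines, and p-values measure only the spread between these libraries.

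miR-34 miRNAs are direct transcriptional targets of p53, and they repress genes of the cell cycle and of survival such as Cdk6, Ccnd1, Met and Bcl2. One hairpin, miR-34a, has its own gene. The other hairpins, miR-34b and miR-34c, are cut from a shared primary transcript, and they are known for high levels in multiciliated epithelia and testis. Base pairing of the seed, bases 2 to 8 of the mature strand, selects the target mRNAs.

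The sequences of the family are shown because the shared seeds and the near-identity of strands decide how reads were assigned to names. They come from RefSeq (GRCm38.p6), are written 5′ to 3′, and carry the seed in capitals. The entry of miR-34c-5p was absent from the reference used, so its sequence and coordinates are not shown.
miR-34a-5p: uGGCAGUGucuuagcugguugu
miR-34b-5p: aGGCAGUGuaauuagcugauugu
miR-34b-3p: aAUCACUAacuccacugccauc
miR-34c-3p: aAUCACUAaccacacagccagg

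miR-34a-5p and miR-34b-5p have the same seed, and that of miR-34c-5p was not compared here. The 3p strands of miR-34b and miR-34c share another seed and are identical at 17 of 22 positions. In GRCm38, miR-34a-5p lies at chr4:150068473-150068494 on the plus strand, in Mir34a (ENSMUSG00000065493.1). The last bases of this hairpin gene overlap the start of another gene model, Gm37795, on the same strand in GENCODE M21. miR-34b-5p lies at chr9:51103610-51103632 and miR-34b-3p at chr9:51103574-51103595, both on the minus strand in Mir34b (ENSMUSG00000065492.1). miR-34c-3p lies at chr9:51103044-51103065 on the same strand, in Mir34c (ENSMUSG00000065587.1), with 451 bases between the hairpin genes. Both lie within the span of Btg4, on the strand opposite to it and outside its annotated exons.

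The libraries held 112792 to 6543570 reads assigned to miRNAs. The smallest, tKO DM3 line 1 replicate 1, stood apart. Fragments under 18 nt made up 18.9% of it, and the names miR-6240 and miR-6236 together took 35.4%. Control DM3 line 1 replicate 2 followed with 12.8% and 17.1%. In GM, tKO line 1 replicate 2 stood apart with 6.49% and 5.41%, where the other GM libraries had at most 2.95% and 1.63%. Levels are given as CPM, reads scaled to a common library total and adjusted between libraries by TMM (trimmed mean of M values, from edgeR). miR-206-3p, one of the deleted miRNAs, had 1 to 28 reads in tKO libraries and at least 429 in control libraries. The summed level of the 6 muscle miRNAs checked was 1130 to 1975 CPM in control GM and 16491 to 63110 CPM in control DM3, most of it miR-206-3p. It was 168 to 282 CPM in tKO GM and 231 to 1260 CPM in tKO DM3. miR-133a-3p, a muscle miRNA that was not deleted, was 1007 to 1688 CPM in control DM3 and 56.0 to 719 CPM in tKO DM3, and its part in the tKO DM3 comparisons was not tested. Of 10 markers of other cell types, 8 were listed, and their summed level in GM was 34.9 to 76.7 CPM for control and 35.1 to 104.6 CPM for tKO. In DM3 it was 8.54 to 29.9 CPM for control and 7.68 to 35.1 CPM for tKO, and its part in the DM3 against GM comparisons was not tested. miR-451a of red blood cells had 2 reads in all 16 libraries.

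Every member was detected in every library, and together they made up 0.229% to 0.721% of the reads, with a median of 0.512%. miR-34c-5p was the most abundant member in 16 of 16 libraries, with a mean of 2946 ± 1196 CPM (SD, n = 16 libraries of all groups). It contributed 44.5% to 64.5% of the family's reads. miR-34b-3p came second in 15 of 16 libraries at 1221 ± 474 CPM. miR-34a-5p (363 ± 88.3 CPM) and miR-34b-5p (312 ± 123 CPM) followed and did not differ beyond their spread. miR-34c-3p, the minor strand of its hairpin, had 191 ± 89.1 CPM, the lowest mean as listed. The place of miR-34b-5p rests on reads also listed under miR-34c-5p, described below, and its mismatch-free reads alone came to group means of 12.7 to 24.3 CPM, under miR-34c-3p. The strands are 22 or 23 nt long, so levels needed no scaling for length. The order is one of reads, since adapter ligation favours some ends over others. miR-34a-3p, the other strand of the miR-34a hairpin and no member, had 112 reads in all libraries together.

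**Figure D1:**
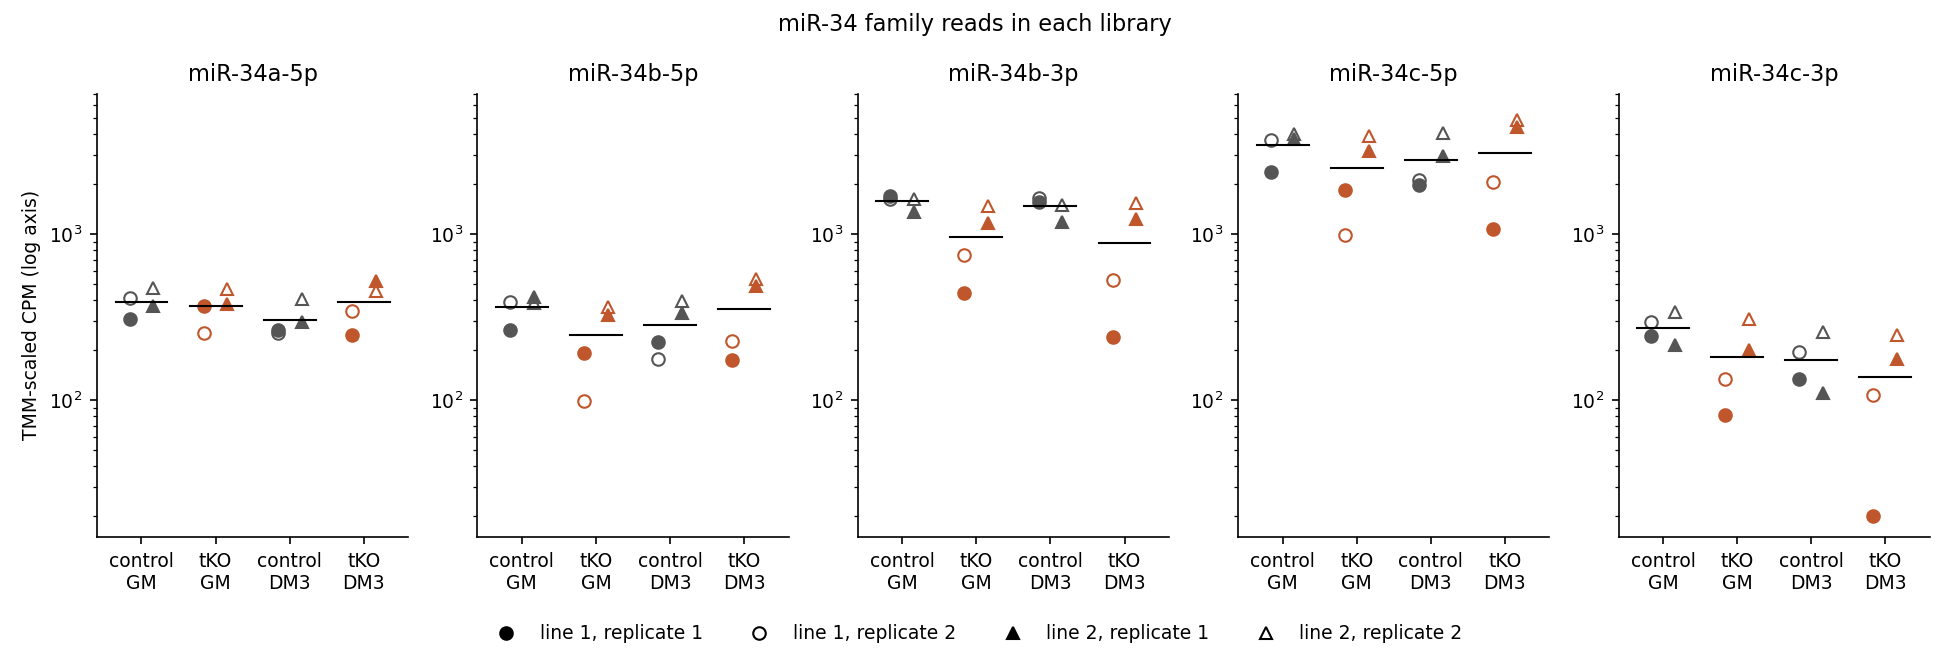
TMM-scaled CPM of each member (log axis) in the 16 libraries, by group. Points are libraries, with circles for line 1, triangles for line 2, filled symbols for replicate 1 and open symbols for replicate 2, and horizontal lines are group means. miR-34c-5p is at the top in every library, and in tKO the triangles of every member lie above the circles.

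Most reads listed under miR-34b-5p were also listed under miR-34c-5p. Of 12646.5 reads under miR-34b-5p in the 16 libraries, 11709 (92.6%) sat in a single listed sequence of 23 nt that differs from miR-34b-5p by 1 mismatch. The tables gave an equal number of reads to a T-tailed form of miR-34c-5p shortened by 1 base. Both numbers were equal within 1 read in 11 of 16 libraries and differed by at most 8 reads in the others. The reads are fractional, as they are where a read matching several entries is divided between them.

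The share of miR-34b-5p reads in this sequence was 84.3% to 94.6% in 15 libraries. In tKO DM3 line 1 replicate 1, the library apart, it was 64.2% (Wilson 95% interval 46.2% to 80.6%) of 26.5 reads. Only 765.5 reads (6.05%) in all libraries matched miR-34b-5p without a mismatch, 3.5 to 134 per library. The other members had no such composition: 90.2% of miR-34a-5p, 93.7% of miR-34b-3p, 92.6% of miR-34c-5p and 93.6% of miR-34c-3p reads had no mismatch. Under miR-34b-5p, 10 reads in all libraries had another base at the mismatched position. The shared reads listed there came to 7.08% to 10.6% of the miR-34c-5p reads of a library. The hairpin that a shared read came from was not tested. Over the 16 libraries, which differ in depth and line, log2 CPM of miR-34b-5p correlated at a Pearson r of 0.96 with miR-34c-5p. With miR-34b-3p, the strand of its own hairpin, r was 0.55. Since the shared reads are counted under both miR-34b-5p and miR-34c-5p, the r of 0.96 is not an independent observation.

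**Figure D2:**
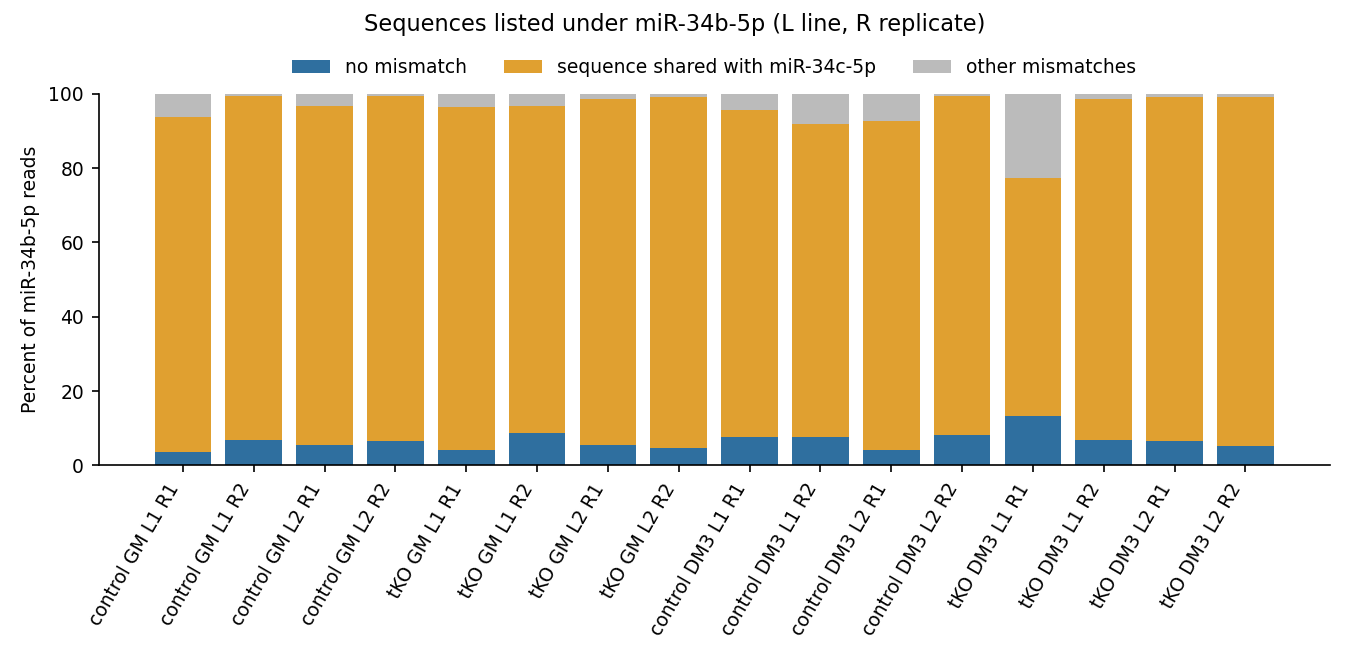
Percent of the reads listed under miR-34b-5p in each library (L line, R replicate) that had no mismatch, lay in the sequence shared with miR-34c-5p, or had another mismatch. The shared sequence takes 64.2% of the reads in tKO DM3 line 1 replicate 1 and 84.3% to 94.6% elsewhere.

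The few mismatch-free miR-34b-5p reads were themselves split between starts. Of the pooled reads, 54.3% began at the annotated base and 44.9% began 1 base upstream, which moves the seed by 1 base. The pool weights libraries by depth, and the order did not hold in every group. The annotated share was 46.7% ± 23.98 in control GM, 53.1% ± 18.4 in tKO GM, 37.9% ± 16.4 in control DM3 and 52.6% ± 13.7 in tKO DM3 (SD, n = 4 each), with 11.1% to 71.4% in single libraries. The annotated form and a form of 22 nt that begins 1 base upstream are shown as listed. Bases 2 to 8 are in capitals, because the seeds differ.
miR-34b-5p, annotated start: aGGCAGTGtaattagctgattgt
miR-34b-5p, 1 base upstream: tAGGCAGTgtaattagctgatt

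The annotated form of 23 nt had 164 reads and the upstream form shown 172, over all libraries. A form with the annotated start that was 1 base shorter had 169. Starts of the other 5p strands were nearly uniform, with 99.0% of mismatch-free miR-34a-5p reads and 99.4% of miR-34c-5p reads at the annotated base. The 3p strands varied more: 9.04% of miR-34b-3p reads and 5.76% of miR-34c-3p reads began 1 base downstream. The commonest miR-34a-5p form was 1 base longer than the annotated 22 nt, with 52.2% of mismatch-free reads against 33.9% for the annotated length. Of 96 mismatch-free miR-34a-3p reads, 60 began in the hairpin loop, 21 or 22 bases before the annotated start, so this name mostly did not count the mature strand.

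The question of whether loss of miR-206 and miR-1a goes with a change of the family was addressed by tKO against control in each medium. In GM, miR-34c-5p in control was 2357 and 3687 CPM in line 1 (replicates 1 and 2) and 3739 and 3978 CPM in line 2. In tKO GM it was 1850 and 988 CPM in line 1 and 3168 and 3899 CPM in line 2. The tKO libraries of line 1 lay below all control libraries, and those of line 2 lay among them. miR-34b-3p, the abundant strand of the miR-34b hairpin, was 1687 and 1629 CPM in control line 1 and 1364 and 1617 CPM in line 2. In tKO GM it was 441 and 749 CPM in line 1 and 1166 and 1477 CPM in line 2. Both tKO libraries of line 1 and the lower one of line 2 lay below the control range.

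None of the 5 members passed edgeR's quasi-likelihood test in GM after Benjamini-Hochberg adjustment over 807 names, of which 1.12% passed. The log2 fold change of miR-34b-3p was -0.72 (SE 0.45, adjusted p = 0.83) and that of miR-34c-5p -0.47 (SE 0.45, adjusted p = 0.94). It was -0.59 (SE 0.52) for miR-34c-3p, -0.58 (SE 0.44) for miR-34b-5p and -0.09 (SE 0.32) for miR-34a-5p. The median over the members was -0.58 and that over all names tested 0.11. For no member were the 4 tKO and 4 control libraries free of overlap, against 8.92% of the names. No member had an unadjusted p under 0.05, which 8.05% of names had. Without tKO GM line 1 replicate 2, miR-34c-5p came to -0.21 and miR-34b-5p to -0.31, and without replicate 1 of that line miR-34b-3p came to -0.47 and miR-34c-3p to -0.34. Without tKO GM line 2 replicate 2, miR-34c-5p came to -0.71 and miR-34c-3p to -0.94.

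In DM3, miR-34b-3p was 1551 and 1653 CPM in control line 1 and 1186 and 1484 CPM in line 2. In tKO DM3 it was 241 and 526 CPM in line 1 and 1231 and 1529 CPM in line 2, so tKO line 1 was below every control library and line 2 within their range. miR-34c-5p was 1981 and 2113 CPM in control line 1 and 2959 and 4059 CPM in line 2. In tKO it was 1069 and 2048 CPM in line 1 and 4384 and 4850 CPM in line 2. The tKO libraries of this miRNA held both the lowest and the highest values of the comparison.

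In DM3, too, 0 of 5 members passed, where 0.867% of the 807 names did, and none had an unadjusted p under 0.05, beside 11.2% of names. The groups overlapped for all 5 members, while 4.71% of names did not overlap. The log2 fold changes by edgeR's quasi-likelihood fit were -0.73 (SE 0.45, adjusted p = 0.49) for miR-34b-3p and 0.15 (SE 0.45, adjusted p = 0.91) for miR-34c-5p. That of miR-34c-5p came to -0.07 without tKO DM3 line 2 replicate 1 and to -0.12 without replicate 2 of that line. Leaving out any other library did not turn its sign. For miR-34a-5p, control libraries held at most 405.8 CPM and tKO libraries at most 523 CPM, with a fitted change of 0.36 (SE 0.32) that ranged from 0.18 without tKO DM3 line 2 replicate 1 to 0.64 without control DM3 line 2 replicate 2. The member median was 0.15, beside 0.09 over all names. With terms for line within each genotype and a replicate block, which measure error within lines, miR-34b-3p was the 1 member that passed, at -1.01 (edgeR adjusted p = 0.0329), where 2.6% of names passed. With the replicates of each line summed, so that lines are the samples, it was -0.67 (edgeR adjusted p = 0.548). In the fit without these terms its change was -0.32 when tKO DM3 line 1 replicate 1 was left out, and that of miR-34c-3p went from -0.30 to 0.10. miR-34c-3p had 3 reads in that library, which is the smallest count taken as detectable at its depth.

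Differentiation was addressed by DM3 against GM within each genotype. Of all names, 27.6% passed in control cells and 19.7% in tKO cells, and 0 of 5 members did in either. The groups of no member were free of overlap, beside 32.6% of names in control and 19% in tKO. In control cells the means of miR-34a-5p were 389 ± 71.1 CPM in GM and 305 ± 69.2 CPM in DM3 (SD, n = 4 each), a log2 change of -0.35 (SE 0.32). miR-34c-3p had the largest fitted change of the members in control, -0.64 (SE 0.52), with 273 ± 55.6 CPM in GM and 174 ± 66.2 CPM in DM3. Without control DM3 line 2 replicate 2, miR-34a-5p came to -0.60 and miR-34c-3p to -0.97. The member median was -0.35, and that of all names 0.02. Scaling by total counts moved the median of all names by 0.37 and turned the sign of 4 of the 5 members in control cells, where miR-34b-3p came to 0.31 and miR-34a-5p to 0.03, both under that shift.

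In tKO cells the member with the largest fitted change was miR-34b-5p, at 0.55 (SE 0.44), with 245 ± 122 CPM in GM and 355 ± 181 CPM in DM3 (SD, n = 4 each), and at 0.23 without tKO DM3 line 2 replicate 2, 0.28 without tKO GM line 1 replicate 2 and 0.36 without tKO DM3 line 2 replicate 1. Its name holds mostly the shared reads described above. Counting only sequences of 18 to 25 nt without mismatch, its change was 1.32 (edgeR adjusted p = 0.0206), which passed, as did 26.3% of the 441 names tested so, and on any length without mismatch 1.01 (edgeR adjusted p = 0.0626). With the shared sequences given to miR-34c-5p, its change was 0.73 and did not pass (edgeR adjusted p = 0.176). The mismatch-free level was 12.7 ± 5.24 CPM in tKO GM and 24.3 ± 6.90 CPM in tKO DM3, and it rested on 3.5 reads in the library apart. The member median in tKO was 0.10, beside 0.01 over all names. The difference between the 2 differentiation effects passed for 0 of 5 members and for 0% of names by edgeR, with member values from -0.01 to 0.92. The value of miR-34b-3p, the lowest, changed sign under 20 of 32 alternatives.

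Intervals bound what these comparisons could show. Over the 5 members and 4 comparisons, the 95% confidence intervals of the fold change reached down to 0.301, for miR-34c-3p in control differentiation, and up to 2.77, for miR-34b-5p in tKO differentiation. For miR-34a-5p the interval of tKO against control was 0.590 to 1.50 in GM and 0.806 to 2.06 in DM3. Each interval spans the changes that its comparison leaves possible under this fit. In bulk RNA, fewer cells that express a miRNA and less of it per cell cannot be told apart.

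**Figure D3:**
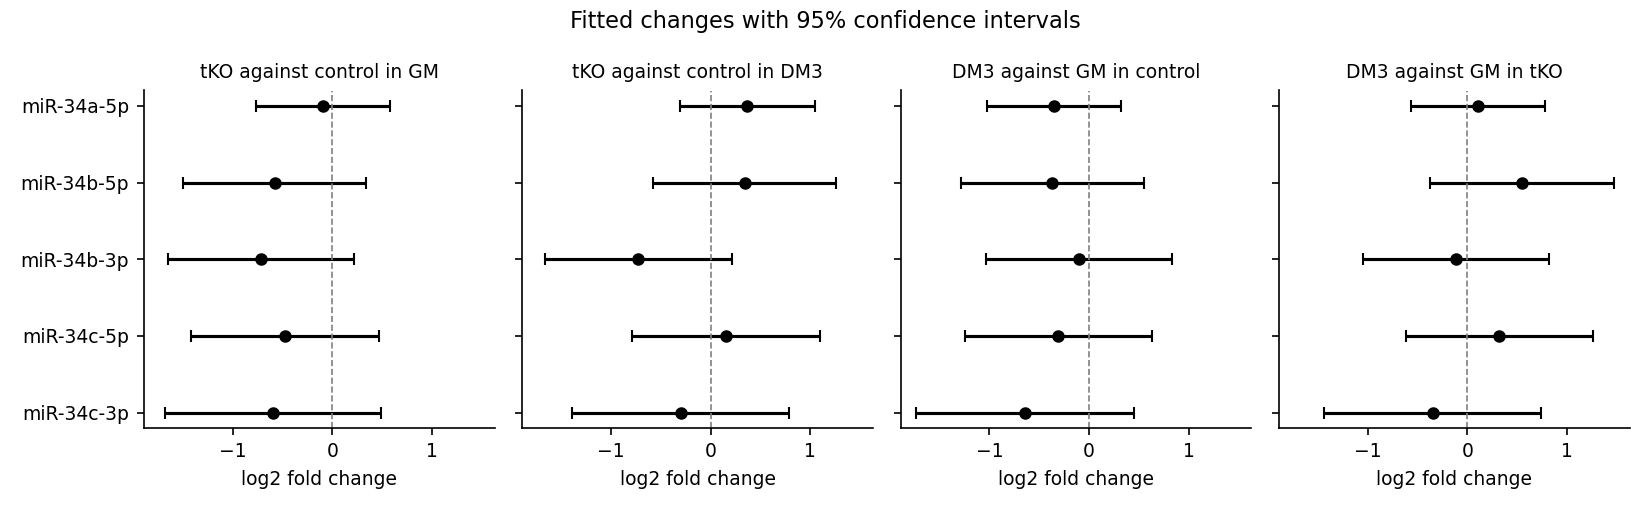
Log2 fold changes of the 5 members in each of the 4 comparisons from the edgeR fit. Points are estimates, bars are 95% confidence intervals, and the dashed line marks no change. All 20 intervals cross 0.

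Levels were ordered by clone in tKO cells. In GM the mean of miR-34c-5p was 1419 CPM in clone 1 and 3533 CPM in clone 2, a ratio of 2.49, and in DM3 it was 1558 and 4617 CPM, a ratio of 2.96. miR-34b-3p had ratios of 2.22 in GM and 3.60 in DM3. miR-34c-3p had ratios of 2.37 and 3.32, and miR-34b-5p of 2.36 and 2.54. miR-34a-5p, from the other locus, had the smallest ratios, 1.37 and 1.65. For 5 of 5 members, both libraries of clone 2 lay above both of clone 1 in each medium, which held for 8.18% of the 807 names. The miR-34b and miR-34c strands share a primary transcript and the miR-34b-5p name repeats miR-34c-5p reads, so these are not 5 separate observations. Reads under 18 nt made up 2.00% and 6.49% of the clone 1 libraries in GM and 18.9% and 4.80% in DM3 (replicates 1 and 2), beside 2.34% to 4.38% of the 4 clone 2 libraries. The part of short fragments in the order of the clones was not tested.

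Between the control populations the same held for 1 member, miR-34c-5p, against 7.68% of names, and there its lowest value in line 2 in GM, 3739 CPM, was close to the highest in line 1, 3687 CPM. In DM3, both libraries of population 2 lay above both of population 1 for miR-34a-5p, miR-34b-5p and miR-34c-5p. Their ratios there were 1.35, 1.81 and 1.71, and neither 3p strand showed this order. miR-34b-3p was lower in population 2, with ratios of 0.899 in GM and 0.834 in DM3. In tKO the median log2 distance of miR-34c-5p between clones was 1.61, beside 0.60 between replicates of a clone. In control those distances were 0.62 and 0.27.

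A test between clones, added after these values were seen, was run in an edgeR quasi-likelihood fit with a coefficient per line and medium. By it miR-34b-3p was higher in clone 2 by 1.49 on the log2 scale (SE 0.31, adjusted p = 0.0194) and miR-34c-5p by 1.44 (SE 0.30, adjusted p = 0.0194). So 2 of 5 members passed, beside 1.36% of the 807 names. miR-34c-3p (1.41, SE 0.46, adjusted p = 0.18) and miR-34b-5p (1.29, SE 0.33, adjusted p = 0.0692) did not pass, nor did miR-34a-5p (0.58, SE 0.31). The member median was 1.41 and that of all names -0.25. Without tKO DM3 line 1 replicate 1, miR-34b-3p (1.33, edgeR adjusted p = 0.0542) and miR-34c-5p (1.26, edgeR adjusted p = 0.152) no longer passed, so 0 of 5 did. No member passed without tKO GM line 2 replicate 1, tKO GM line 2 replicate 2 or tKO DM3 line 2 replicate 2 either, and 0.562% to 1.05% of names did under these 4 omissions. In a fit of the tKO libraries alone, 0 of 5 members and 0% of names passed. One member passed without any single control library, tKO GM line 1 replicate 2 or tKO DM3 line 2 replicate 1, beside 0.834% to 1.04% of names, and 4 passed without tKO DM3 line 1 replicate 2, where 10.7% of names did. Without tKO GM line 1 replicate 1 the count stayed at 2, beside 1.46% of names, but the members were miR-34c-5p and miR-34b-5p (1.58, edgeR adjusted p = 0.0399), and miR-34b-3p lost its call (1.34, edgeR adjusted p = 0.0712). Without both clone 1 libraries rich in short reads, tKO GM line 1 replicate 2 and tKO DM3 line 1 replicate 1, the changes were 1.45 for miR-34b-3p and 1.01 for miR-34c-5p. Clone 1 then had a single library in each medium, so the spread came from the other groups and no call is given. Over all 16 omissions the edgeR adjusted p was 0.0036 to 0.116 for miR-34b-3p and 0.00515 to 0.183 for miR-34c-5p, and the changes were at least 1.33 for miR-34b-3p and 1.26 for miR-34c-5p. With scaling by total counts miR-34b-3p lost its call (1.20, edgeR adjusted p = 0.104) and miR-34c-5p kept it, while 0.991% of names passed. With the replicate block and with DESeq2's Wald test, 4 of 5 members passed, all but miR-34a-5p, beside 2.48% of names and 10.6% of those given an adjusted p. The contrast concerns these 2 clones and no property of the genotype.

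The same test between control populations called 0 of 5 members and 0% of names, with changes from -0.21 for miR-34b-3p to 0.58 for miR-34b-5p. The difference between the clone contrast and the population contrast passed for 0 of 5 members, where 0.124% of names did. It was 1.70 (SE 0.43, edgeR adjusted p = 0.205) for miR-34b-3p and 0.87 (SE 0.41, edgeR adjusted p = 0.673) for miR-34c-5p. With the replicate block miR-34b-3p passed (1.75, edgeR adjusted p = 0.0487), beside 0.496% of names. By DESeq2's Wald test it also passed (1.72, DESeq2 adjusted p = 0.0214), beside 0.62% of names.

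**Figure D4:**
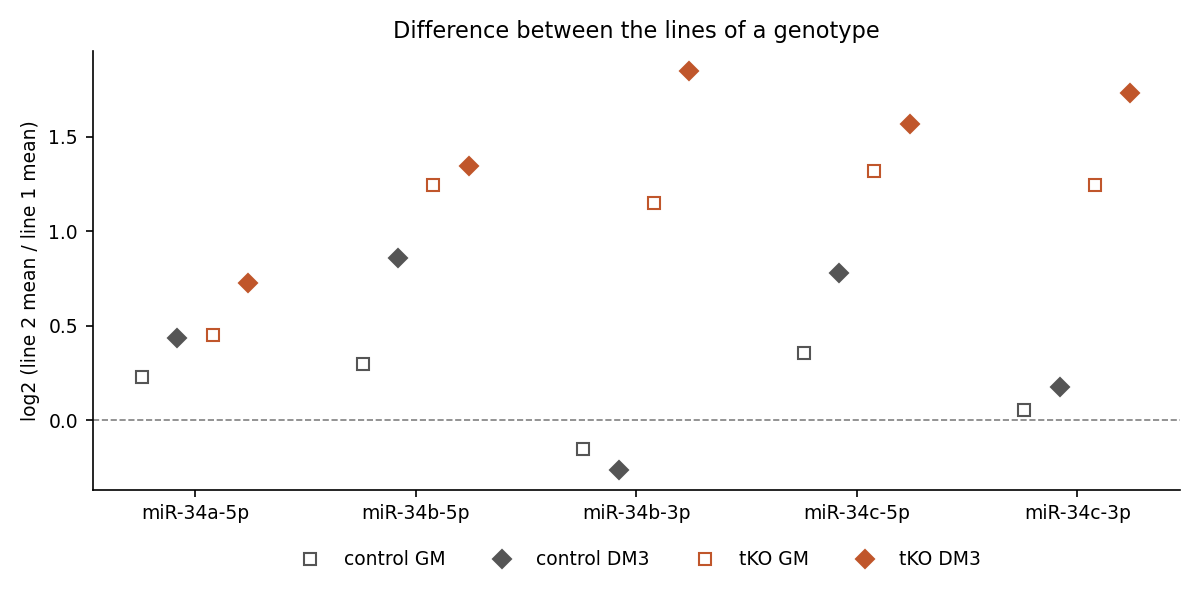
Log2 ratio of the mean TMM-scaled CPM of line 2 to that of line 1 for each member, by genotype and medium. Each point compares means of 2 libraries, and the dashed line marks equal means. The tKO points of the miR-34b and miR-34c strands lie above every control point.

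Strand selection differed between the hairpins. miR-34c gave mainly its 5p strand, with 7.43 to 53.5 reads per 3p read. miR-34b gave mainly its 3p strand, with 1.36 to 9.31 reads per 5p read as listed. Without mismatched reads, and so without the shared sequence, miR-34b had 10 to 173 3p reads per 5p read. The arms of a hairpin come from the same library, so their ratio needs no scaling between libraries.

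In DM3 the ratio of miR-34b 5p to 3p reads was 0.145 and 0.107 in control line 1 and 0.282 and 0.265 in line 2. In tKO it was 0.736 and 0.432 in line 1 and 0.393 and 0.351 in line 2, so the groups did not overlap. Arm ratios were compared for this family only, so the share of all hairpins separated this way is not known. The mean log2 ratio was -2.43 ± 0.68 in control and -1.13 ± 0.48 in tKO (SD, n = 4 each), a difference of 1.31 (two-sided exact permutation p = 0.0286, the smallest that 70 assignments give). Adjusted over the 19 arm and tail tests, this exact p was 0.181. Permuted within replicates, as a replicate block, it was 0.0556, the smallest that 36 assignments give. Without tKO DM3 line 1 replicate 1 the difference was 1.08 (exact permutation p = 0.0857), without replicate 1 of line 2 there 1.38, without replicate 2 of line 1 there 1.34 (exact permutation p = 0.0571 for both), and on mismatch-free reads 1.44 (exact permutation p = 0.0571). Since 5p reads of this hairpin are mostly shared ones, the listed ratio compares miR-34b-3p largely with reads that were also listed under miR-34c-5p. For GM the same contrast gave 0.13 (p = 0.8 by exact permutation).

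For miR-34c the DM3 ratio was 14.8 and 10.9 in control line 1 and 26.7 and 15.7 in line 2. In tKO it was 53.5 and 19.03 in line 1 and 24.8 and 19.7 in line 2, and the groups overlapped. The mean log2 ratio rested on 3 reads of the 3p strand in the library apart and differed by 0.67 (exact permutation p = 0.171), and by 0.39 without that library (exact permutation p = 0.314). Of the 8 arm comparisons, 1 had an exact p under 0.05 before adjustment and none after it.

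**Figure D5:**
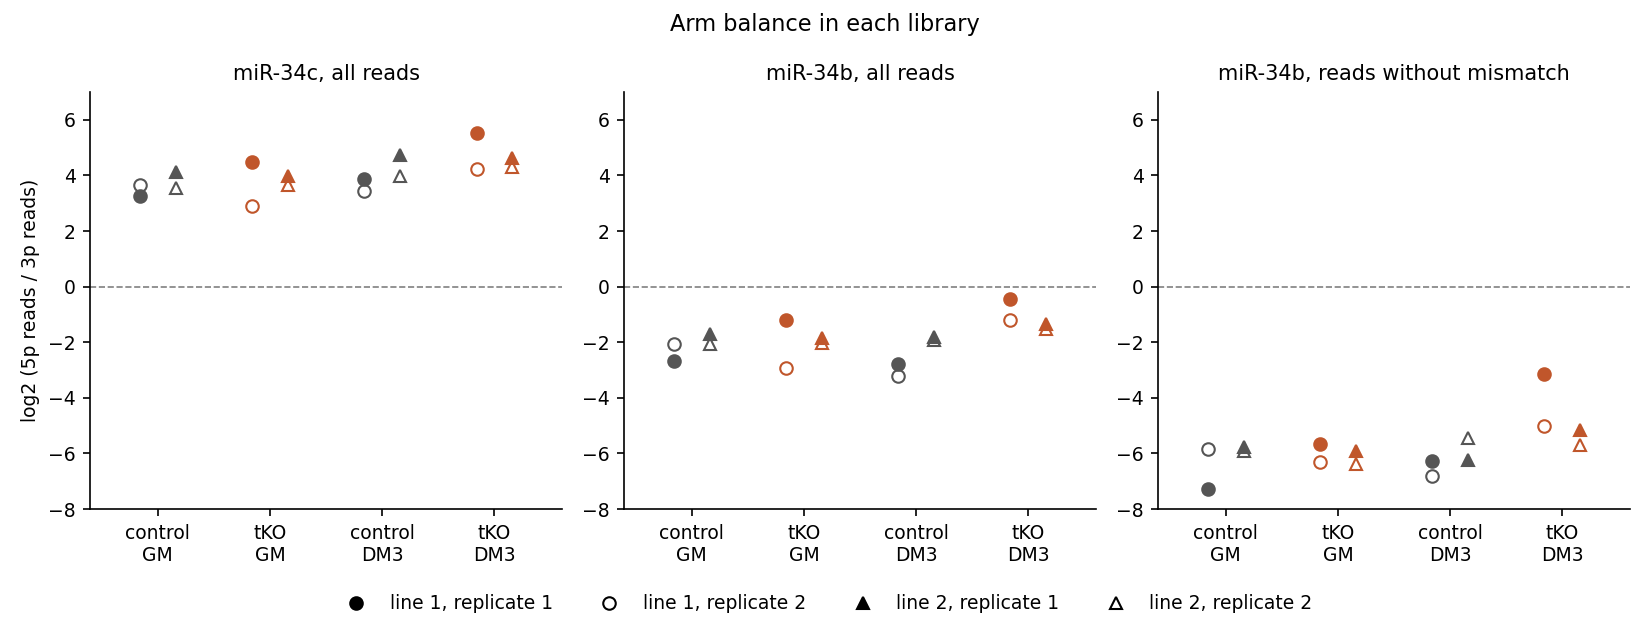
Log2 ratio of 5p to 3p reads of the miR-34c hairpin and of the miR-34b hairpin, the latter with all listed reads and with reads without mismatch. Points are libraries, with circles for line 1, triangles for line 2, filled symbols for replicate 1 and open symbols for replicate 2. miR-34c lies above 0 and miR-34b below 0 in all 16 libraries.

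Bases added to the 3′ end without template were common on most members. They were listed for 31.6% of miR-34a-5p reads, 21.9% of miR-34c-5p reads, 21.7% of miR-34c-3p reads and 18.7% of miR-34b-3p reads. The bases differed: miR-34b-3p carried mainly T (13.2% of its reads), miR-34c-3p mainly A (12.9%), and miR-34c-5p both T (10.9%) and A (6.91%). miR-34a-5p carried A (11.5%) and C (9.12%). The listed share of miR-34b-5p has no such reading, because the last T of the shared sequence is template there and a tail on miR-34c-5p. With the shared reads counted whole for miR-34c-5p, its T-tailed share was 18.6%, with 14.1% to 21.4% in single libraries. Its total tailed shares, above and in the comparisons below, count only the part of the shared reads listed under its own name.

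In control cells the tailed share of miR-34c-5p was 23.3% and 23.6% in GM line 1 and 22.8% and 22.1% in line 2. In DM3 it was 18.8% and 17.3% in line 1 and 20.6% and 19.8% in line 2, below every GM library. The means were 22.95% ± 0.631 and 19.1% ± 1.44 (SD, n = 4 each), which differed at p = 0.0286 (two-sided, exact permutation). For miR-34a-5p in control the shares were 31.5% to 43.6% in GM and 25.95% to 29.0% in DM3, at the same exact permutation p, and this p was 0.0571 without any 1 of the 4 control DM3 libraries. Adjusted over the 19 tests both were 0.181, and 2 of 11 tail tests had an exact p under 0.05 before adjustment. Tailed shares were compared for members only, so the share of all names separated this way is not known. In tKO the share of miR-34c-5p was 21.1% ± 1.72 in GM and 20.5% ± 2.27 in DM3 (exact permutation p = 0.714). Reads under 18 nt were 1.88% to 2.95% of the control GM libraries and 4.76% to 12.8% of the control DM3 libraries. On mismatch-free sequences of 18 to 25 nt the differences in control were -3.63 percentage points for miR-34c-5p and -8.80 for miR-34a-5p.

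Other miRNAs linked to p53 were read from a list of 12, of which 9 were abundant enough to test. None passed in tKO against control in GM (1.12% of all names) or DM3 (0.867%), nor in differentiation of tKO cells (19.7%). In control differentiation 3 of 9 were lower and 0 higher, beside the 27.6% of names. They were miR-107-3p (-1.44, SE 0.42, edgeR adjusted p = 0.0152), miR-16-5p (-1.44, SE 0.47, edgeR adjusted p = 0.0265) and miR-15a-5p (-1.70, SE 0.56, edgeR adjusted p = 0.0282). These 3 miRNAs belong to seed groups that repress cyclins. Control means of miR-16-5p went from 1155 ± 445 CPM (GM) to 424 ± 291 CPM (DM3; SD, n = 4 each). Of the miR-449 miRNAs, which share the miR-34 seed and mark multiciliated cells, miR-449a-5p had 87 reads, miR-449b-5p 190.5 and miR-449c-5p 276 over all libraries. Only 40, 0 and 28 of those reads were free of mismatch. miR-449a-5p was too scarce to test, and the log2 changes of miR-449b-5p and miR-449c-5p lay between -1.02 and 0.43 in the 4 comparisons, none of which passed.

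The names whose levels followed the members most closely were taken among 232 abundant miRNAs over the 16 libraries, as a description. For miR-34a-5p they were miR-30c-5p (Pearson r = 0.91), miR-152-3p (0.84) and miR-22-3p (0.83), where the median over the 232 was 0.38. For miR-34c-5p they were miR-181b-5p (0.91), miR-181a-1-3p (0.90) and miR-24-3p (0.90), with a median of 0.30. Within the family, miR-34b-3p followed miR-34c-3p at 0.90 and miR-34a-5p at 0.37. Libraries share depth, line and medium, and the correlations carry no test.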

How the data were processed

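Total RNA of C2C12 cells was made into small RNA libraries with ligated adapters and gel selection of short inserts, per the labels' protocols. The submitters' processing notes name cutadapt 1.15, STAR 2.5.4 and the mm10 build, which is GRCm38. The authors deposited 1 unitas table per library, whose version is not given in the sources used here. Its values are expected counts of reads per listed sequence and miRNA name, with no normalization and with fractions for reads that match several entries, per the file headers and values. Further deposited columns hold expected counts of reads with added 3′ bases.

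Expected counts were summed per name, 236 of 2510 names without a mature sequence of their own were merged, and sums were rounded for the tests. One model over the 16 libraries, with a coefficient for each group, was fitted in edgeR 4.0.16 (R 4.3.3) after filterByExpr with a minimum count of 10 and TMM scaling, with robust quasi-likelihood tests and Benjamini-Hochberg adjustment over 807 names, at a threshold of 0.05. The fit was tested on simulated data. Arm ratios (with 0.5 read added) and tailed shares (for members with at least 50 reads in every library compared) were compared by two-sided exact permutation tests over libraries in Python 3.11.15. Wilson 95% intervals and the floor of 3 counts cover counting error only. No 2 libraries of a group were alike within sampling noise: the chi-square per degree of freedom was at least 47.3 in 24 pairs.

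The 5 members are always named, with miR-34a-3p as companion. A p53-linked list (miR-34a-3p, miR-192-5p, miR-194-5p, miR-215-5p, miR-145a-5p, miR-143-3p, miR-107-3p, miR-605-5p, miR-15a-5p, miR-16-5p, miR-200c-3p, miR-141-3p) and the miR-449 list are given by counts, with values for those that passed and for miR-449. For the most abundant member of each locus, the 3 names with the highest r of log2(TMM-scaled CPM + 1) are named, among names of at least 50 CPM on average with most reads free of mismatch. Members, lists and tests were chosen with earlier results of these data known. Alternatives covered DESeq2 1.42.0 (size factors and Wald test), total-count scaling, other filters, replicate and line blocks, mismatch and length limits, names as listed, replicates alone or summed, and each library left out. The contrasts between lines and the reassignment of shared reads to miR-34c-5p, and the omission of both tKO line 1 libraries rich in short reads, were added after the data were seen.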

Additional observations from a re-analysis of the deposited data

Results flagged for a closer look

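Across 48 groups of 4 libraries (levels, arm ratios and tailed shares), 3 held a library far from the other 3, where chance alone gives about 1 in 20. For miR-34a-5p the lowest tailed share of control DM3 was 25.95%, in line 2 replicate 2. In tKO DM3 its lowest share was 18.9%, in line 1 replicate 1, from 37 reads. In the same library the tailed share of miR-34c-3p was 0%, from 3 reads, so that depth cannot show a share there.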

How the results depend on the processing

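No member was called in tKO against control in GM, or in control differentiation, under any alternative run. Of all names, these alternatives called 0.355% to 3.73% in the former and 9.28% to 38.3% in the latter. With line and replicate block, 1 member was called in tKO against control in DM3 (miR-34b-3p, -1.01), beside 2.6% of names, and miR-34c-5p came to -0.0061. With mismatch-free sequences of 18 to 25 nt, 1 member was called in tKO differentiation (miR-34b-5p, 1.32), beside 26.3% of names. Same-numbered libraries of different groups had a mean r of 0.101 (48 pairs, lowest -0.46), beside -0.0954 for differently numbered ones, and replicate 2 was the deeper library in 8 of 8 lines by group. Not every pair deviated together and the labels tie the numbers to no batch, so they were not taken as pairs. The replicate block alone changed no call of a member's level in the 4 comparisons. The cause of the changes listed here was not tested.

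Signs of small changes turned. In tKO against control in GM, miR-34a-5p came to 0.019 (18 to 25 nt) and 0.15 (replicate 1 alone), and in DM3 miR-34b-5p to -0.16 with shared sequences given to miR-34c-5p. In control differentiation, total-count scaling gave 0.033 for miR-34a-5p, 0.0087 for miR-34b-5p, 0.31 for miR-34b-3p and 0.061 for miR-34c-5p. Mismatch-free sequences gave 0.15 for miR-34b-5p and 0.18 for miR-34b-3p there, and those of 18 to 25 nt gave 0.30, 0.27 and, for miR-34c-5p, 0.042. Shared sequences given to miR-34c-5p left miR-34b-5p at 0.15. In tKO differentiation, miR-34a-5p came to -0.0046 with no filter and miR-34b-3p to 0.059 with total-count scaling. The interaction of miR-34b-3p came to 0.0039 (DESeq2 size factors), 0.20 (no filter), 0.046 (10 CPM filter), 0.0042 (DESeq2 Wald), 0.023 (names as listed), 0.089 and 0.028 (replicates 1 and 2 alone) and 0.038 (replicates summed). Between control populations, miR-34c-3p came to -0.13 (total counts), -0.035 (no mismatch) and -0.050 (18 to 25 nt).

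Without both tKO line 1 libraries rich in short reads, an alternative chosen after the data were seen, miR-34a-5p came to 0.11 (tKO against control, GM) and -0.022 (clone minus population), and miR-34b-3p to 0.068 (tKO differentiation) and 0.24 (interaction). That omission left clone 1 with a single library in each medium, so no call between the clones is given for it.

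Between the tKO clones, 1 member was called with total-count scaling (0.991% of names), 4 with DESeq2's Wald test (10.6%), 4 with the replicate block (2.48%) and 0 with only those groups fitted (0%). Clone minus population had 1 call with DESeq2's Wald test (0.62% of names) and 1 with the replicate block (0.496%), miR-34b-3p in both. The miR-34b arm balance in DM3 was 1.44 on mismatch-free reads, which did not pass, and its differentiation change in control was 0.011 on those reads. With the replicate block the DM3 difference was 1.31. That block cannot give an exact permutation p under 0.0556, so it could not pass at any difference. The tailed share of miR-34b-5p moved to -0.692 percentage points (tKO against control, GM) and -2.93 (control differentiation) on mismatch-free sequences of 18 to 25 nt.

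Leaving out each library gave 0 calls in the 4 comparisons, where 0.574% to 1.9% (tKO against control, GM), 0.564% to 6.16% (DM3), 18.4% to 30.6% (control differentiation) and 12.2% to 18.2% (tKO differentiation) of names were called. It gave 0 to 4 calls between clones (0.562% to 10.7% of names) and 0 to 1 for clone minus population (0% to 0.237%). Arm balances of miR-34b ranged over -0.13 to 0.44 (tKO against control, GM), 1.05 to 1.51 (DM3) and 0.57 to 1.13 (tKO differentiation), and those of miR-34c over -0.14 to 0.40 (GM) and 0.63 to 1.16 (tKO differentiation). Without tKO GM line 1 replicate 1, both hairpins' differentiation changes in tKO passed before adjustment. Tailed shares ranged over -10.5 to -6.47 (miR-34a-5p, control differentiation), -0.464 to 0.620 (miR-34b-5p, the same) and -1.25 to 0.399 (miR-34c-5p, tKO differentiation). Log2 changes ranged over -0.17 to 0.055 (miR-34a-5p, GM), -0.12 to 0.52 (miR-34c-5p, DM3) and -0.69 to 0.10 (miR-34c-3p, DM3) for tKO against control. In tKO differentiation they ranged over -0.084 to 0.28 for miR-34a-5p, -0.54 to 0.25 for miR-34b-3p, -0.034 to 0.63 for miR-34c-5p and -0.79 to 0.049 for miR-34c-3p. The interaction ranged over -0.38 to 0.40 for miR-34b-3p and -0.10 to 0.73 for miR-34c-3p, and the population contrast of miR-34c-3p over -0.21 to 0.43. A count of 0 allows up to 0.458 to 26.6 CPM by library, which limits what miR-34c-3p and mismatch-free miR-34b-5p can show in the smallest library.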
